A study of Scophthalmus maximus with 8 samples.

Results

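Of the 21263 turbot genes in the count tables, 23 gave almost no reads in the embryo at 3 dpf (days post fertilization). Their stage means were then nearly even at 15, 23 and 37 dph (days post hatching). The genes were chosen by their measured counts. A gene was taken when it had 3 or fewer raw counts in each 3 dpf library, a mean of at least 50 normalized counts at each later stage, a largest later mean less than 1.4 times the smallest, and no stage mean of 20000 or more. Normalized counts are raw counts divided by a size factor for each library, the median ratio of its counts to the typical library. Every value at 3 dpf and every difference between stage means of these genes was therefore fixed in part by how they were chosen, and is given here as a description.

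RNA was sequenced from 8 turbot (Scophthalmus maximus), a flatfish, with 2 animals at each of the stages named phylotypic (3 dpf), pre-metamorphic (15 dph), metamorphic climax (23 dph) and post-metamorphic (37 dph). The 3 dpf samples were whole animals, and the samples of the later stages were bodies from which the hind part, behind the cloaca, had been cut away. The table of replicate 2 of 3 dpf carries 3 dph in its file name, while its labels give 3 dpf and were followed, and this library is thus assigned by its labels alone. The labels name no treatment or genetic change, and each library came from 1 fish, so that the spread between replicates is that between 2 animals. Between 19077018 and 24633023 reads were counted on genes in a library, with a median of 21101789, and the chi-square between replicates per degree of freedom was from 7.22 at 15 dph to 52.7 at 3 dpf, so the replicates of each stage were counted as 2 libraries. The age and the part of the body sampled cannot be told apart in a comparison of 3 dpf with a later stage.

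At the phylotypic stage a fish embryo has its body plan laid out, while the gut, immune organs, sense organs and skeleton have yet to become functional. A hatched larva feeds, digests, sees and swims with differentiated cells, and a flatfish larva then passes through a metamorphosis driven by thyroid hormone, in which an eye migrates and the animal settles on the bottom. Genes with almost no reads in the embryo and level from larva to juvenile are those whose read counts rise at some time between the embryo and the larva. The tables name genes by Ensembl identifier, and 0 of them could be paired with a symbol, so that no function, tissue or sequence is given for any of the 23 genes, and the stages could not be checked against marker genes.

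Together the 23 genes had 33 counts in replicate 1 and 29 counts in replicate 2 of 3 dpf, or 1.64 and 1.34 CPM (a share of all gene counts of the library, times 1000000). The same genes summed to 364 and 370 CPM at 15 dph, 318 and 319 CPM at 23 dph and 212 and 361 CPM at 37 dph. The later libraries thus held between 4078 and 8895 counts of these genes, and on the CPM scale the sum in replicate 1 of 37 dph was below those of the 5 others. In the edgeR quasi-likelihood test all 23 genes were called higher (a log2 fold change of 1 or more with a Benjamini-Hochberg adjusted p under 0.05) at 15, 23 and 37 dph than at 3 dpf, where 24.4%, 25.0% and 27.8% of the 18987 genes tested were called higher. The selection required such a step, so nothing is read from that count. In whole embryos and cut bodies, more cells of a type and more RNA per cell cannot be told apart.

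**Figure D1:**
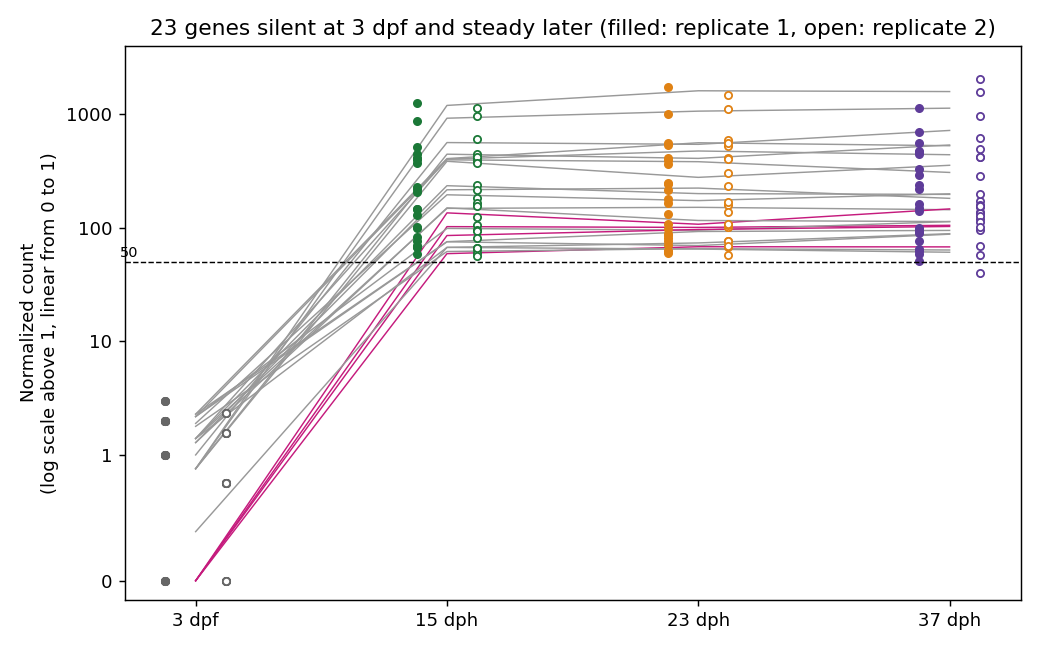
Normalized count (vertical axis, logarithmic above 1 and linear from 0 to 1) of each of the 23 genes at the 4 stages, with filled points for replicate 1, open points for replicate 2 and lines through the stage means. All values at 3 dpf lie at 3 or below, 1 of the 138 later values lies below the dashed line at 50, and pink lines mark the 4 genes with no read in either 3 dpf library.

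Of the 23 genes, 4 had a count of 0 in both embryo libraries, 2 were read in 1 of them and 17 were read in both. In total 5 genes had 2 counts over the 2 libraries, 6 genes had 3, 2 genes had 4 and 5 genes had 5, and 1 gene had a single count. A count of 3 in a library equals 2.99 and 2.34 normalized counts in replicates 1 and 2. These limits, like the exact counting intervals of the ratios to 3 dpf below, cover counting error only. The edgeR intervals between later stages also take in the spread between replicates.

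Among the 4 genes with no read at 3 dpf, ENSSMAG00000007972 had 99.8 and 105 normalized counts at 15 dph, 98.3 and 103 at 23 dph and 89.8 and 120 at 37 dph. Its later level was at least 38.5-fold its 3 dpf level, with 3 counts in each 3 dpf library taken as the upper limit of the latter. Another of the 4 stood at 145 and 125 normalized counts at 15 dph, 108 and 107 at 23 dph and 141 and 152 at 37 dph, at least 48.6-fold higher later. Both 23 dph libraries of that gene were below the other 4. The remaining 2, described with the replicates below, were at least 35.6-fold and 24.4-fold higher later.

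For the 19 genes with 1 to 5 reads at 3 dpf, the ratio of counts per unit of size factor, later libraries over 3 dpf libraries, ranged from 36.0 to 1676 with a median of 162. The smallest ratio had a 95% exact counting interval of 15.3 to 111. The top ratio belonged to ENSSMAG00000016509, which had 1 count in each 3 dpf library and a counting interval of 464 to 13843. The upper bounds are wide because a handful of reads at 3 dpf set them.

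The genes spanned a 23-fold range of later level, from a mean of 63.6 to one of 1464 normalized counts over the 3 stages, with a median of 148. In that range 7 genes lay under 100, 6 between 100 and 200, 7 between 200 and 500 and 3 above 500. These are read counts not divided by gene length, so their order is not an order of transcript number.

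ENSSMAG00000016509 gave the most reads, with 1267 and 1126 normalized counts at 15 dph, 1744 and 1476 at 23 dph and 1143 and 2026 at 37 dph. Its stage means were 1196 ± 100.1, 1610 ± 189 and 1585 ± 624 (SD, n = 2 each). The libraries of 37 dph enclosed those of 23 dph, and both 23 dph libraries were above both of 15 dph. ENSSMAG00000011348, the next by read count, also had 1 count in each 3 dpf library. It stood at 878 and 967 normalized counts at 15 dph, 1009 and 1121 at 23 dph and 694 and 1568 at 37 dph. Its lowest and its highest later library were the 2 animals of 37 dph. The other gene above 500 had 519 and 607 normalized counts at 15 dph, 563 and 523 at 23 dph and 471 and 968 at 37 dph, again with both extremes at 37 dph.

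The largest over the smallest later stage mean was under 1.1 for 3 genes, from 1.1 to 1.2 for 6, from 1.2 to 1.3 for 6 and from 1.3 to 1.4 for 8, with a median of 1.23. The smallest ratios were 1.04 for ENSSMAG00000007972, described above, and 1.05 for ENSSMAG00000027175. ENSSMAG00000027175 had 2 counts and 1 count at 3 dpf and stood at 130 and 166 normalized counts at 15 dph, 165 and 138 at 23 dph and 150 and 139 at 37 dph. Its stage means of 148 ± 26.0, 151 ± 19.1 and 144 ± 7.71 (SD, n = 2 each) differed by less than the replicates of 15 dph did.

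No order of the later stages was common to the genes. The highest mean was at 37 dph for 11 genes, at 23 dph for 7 and at 15 dph for 5, and the lowest was at 15 dph for 9, at 23 dph for 8 and at 37 dph for 6. Of the 6 possible orders all occurred, and the most frequent, lowest at 23 dph and highest at 37 dph, was that of 7 genes. Only 4 genes rose in mean at both steps and 4 fell at both. Of the 23 genes, 47.8%, 30.4% and 21.7% were highest at 37, 23 and 15 dph. Of 14916 genes above the embryo count limit and with at least 50 normalized counts at each later stage, 41.2%, 22.8% and 36.0% were. The lowest mean was at 15, 23 and 37 dph in 39.1%, 34.8% and 26.1% of the 23. Of the 14916 it was there in 37.0%, 19.0% and 44.1%. The 14916 genes were not limited to steady means, and the differences were not tested.

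With the test across all genes and no minimum fold, 0 of the 23 genes differed between 15 and 23 dph at an adjusted p under 0.05, against 2.15% of all genes tested. Between 23 and 37 dph 0 genes differed, against 27.1% of all genes, and between 15 and 37 dph 0 genes differed, against 43.2%. DESeq2 also called 0 in each, against 4.83%, 26.2% and 39.6% of the genes it tested. At an unadjusted p under 0.05 edgeR gave 2, 0 and 1 genes in these comparisons and DESeq2 gave 1, 0 and 0. The genes were selected for small differences between these means, so the counts of 0 are given without inference.

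The fit also gave intervals for these differences, and the selection held the fold changes at their centres small. Between later stages the standard error of the fitted log2 fold change had a median of 0.25 in each of the 3 comparisons. The 95% interval was widest from 23 to 37 dph, with a median width of 1.11 on the log2 scale. Near-equal standard errors follow from the fit, which shares 1 estimate of the spread of a gene among all stages. The replicates of the 23 genes differed by a median of 1.08 times at 15 dph and 1.32 times at 37 dph. Intervals that involve 37 dph may therefore be too narrow. For 19 of the 23 genes the intervals of all 3 comparisons lay within 2-fold in either direction. That held for 36.2% of all genes tested, and for 93.4% of the genes with at least 50 normalized counts at each later stage and the same steadiness of means. The selection favours intervals within 2-fold, and a 95% interval need not hold its stated coverage for genes chosen in this way. The count of 19 is thus a description. The remaining 4 genes reached past 2-fold, the farthest to a log2 fold change of 1.24 from 15 to 37 dph in ENSSMAG00000017385. When a library of 15, 23 or 37 dph was left out, the number within 2-fold fell to 9 or 8 (15 dph replicate 1 or 2), 12 or 11 (23 dph) and 11 or 15 (37 dph), since a stage then rests on 1 animal.

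**Figure D2:**
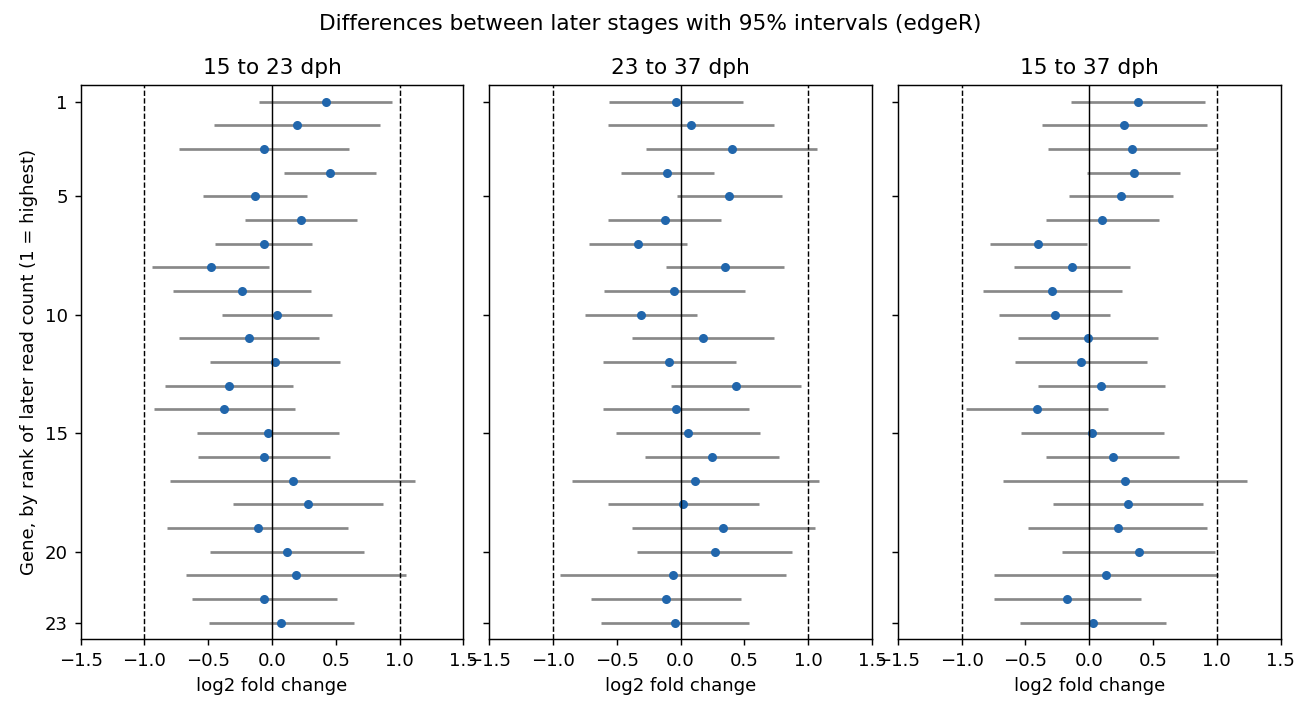
Fitted log2 fold change (points) and 95% interval (bars) from edgeR for the 23 genes, ordered from the highest later read count (1) to the lowest (23), in the 3 comparisons of later stages; dashed lines mark 2-fold. Intervals of 21 genes from 15 to 23 dph, 20 from 23 to 37 dph and 20 from 15 to 37 dph lie between the dashed lines, which the selection favours.

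For 3 genes an interval left out 0, and the intervals are not adjusted for the number of genes and comparisons. In the edgeR fit of all 8 libraries with TMM none of the 3 was called. Their adjusted p values in that test were 0.18, 0.25 and 0.086, in the order given here. The first had 403 and 410 normalized counts at 15 dph, 532 and 589 at 23 dph and 561 and 495 at 37 dph. Its libraries of 15 dph were below all 4 others, and its log2 fold change from 15 to 23 dph was 0.45 (standard error 0.16). The second had 399 and 371 at 15 dph, 250 and 306 at 23 dph and 292 and 418 at 37 dph, and its log2 fold change from 15 to 23 dph was -0.48 (standard error 0.21). It had the largest ratio of stage means among the 23, at 1.39. The third had 370 and 423 at 15 dph, 364 and 399 at 23 dph and 331 and 283 at 37 dph, where both animals were below the 4 earlier ones. Its log2 fold change from 15 to 37 dph was -0.40 (standard error 0.17), and with upper-quartile normalization it was called, where 44.4% of all genes were.

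The difference between the 2 animals of a stage did not enter the selection. At 15 dph the higher over the lower replicate had a median of 1.08 and reached 1.28, and 0 of the 23 genes had a ratio of 1.4 or more. At 23 dph the median was 1.11, the maximum 1.54 and 4 genes, or 17.4%, had 1.4 or more. At 37 dph the median was 1.32, the maximum 3.03 and 9 genes, or 39.1%, had 1.4 or more. Among all 15083 genes with at least 50 normalized counts at each later stage the shares at 15, 23 and 37 dph were 3.30%, 4.85% and 19.5%. Among the 6003 of them that were read at 3 dpf and equally steady in their means the shares were 1.55%, 3.13% and 13.5%. The share fell with the read count, at 37 dph from 32.6% of genes with a later mean of 50 to 100 normalized counts and 25.0% at 100 to 200 to 17.7% at 200 to 500 and 15.0% at 500 to 2000. The 23 genes lay in these bands by 7, 6, 7 and 3, and the differences between the sets were not tested.

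For 19 of the 23 genes the replicates of at least 1 later stage differed by a larger ratio than the stage means did. Taken stage by stage, the replicates differed by more than the means in 17 genes at 37 dph, in 9 at 23 dph and in 4 at 15 dph. The selection held the ratio of stage means under 1.4, which favours such counts, so they are given as a description. For at least 1 later stage the share was 82.6% of the 23 genes. Of the 6003 genes read at 3 dpf under the same limit on the means it was 49.8%. Of all genes at 50 or more it was 24.4%. At 37 dph these shares were 73.9%, 38.0% and 19.0%, at 23 dph 39.1%, 21.2% and 9.14%, and at 15 dph 17.4%, 15.1% and 6.42%. The shares were taken without regard to read count, and their differences were not tested. Of the 23 genes 4 kept all 6 later libraries within 1.4 times, a count given without a share over other genes. In the gene with the closest values the 6 libraries lay within 1.18 times. That gene stood at 67.4 and 66.7 normalized counts at 15 dph, 62.5 and 67.2 at 23 dph and 64.4 and 57.2 at 37 dph.

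**Figure D3:**
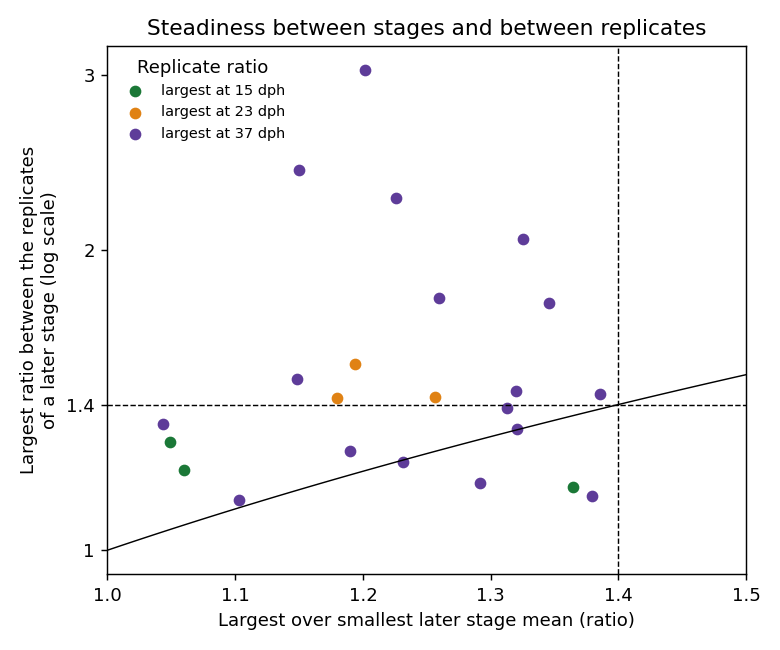
Largest over smallest later stage mean (horizontal axis, ratio) and largest ratio between the replicates of a later stage (vertical axis, logarithmic) for the 23 genes, coloured by the stage with the largest replicate ratio; the solid line marks equal ratios and dashed lines mark 1.4. Above the solid line lie 19 genes (82.6%, against 49.8% of the equally steady genes read at 3 dpf). Above a replicate ratio of 1.4 lie 12 genes, the highest at 3.03.

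The log2 ratio between replicates, taken without its sign and averaged over the 3 later stages, was largest in ENSSMAG00000017385, at 0.73. It had 0 counts in both 3 dpf libraries and stood at 76.8 and 93.9 normalized counts at 15 dph, 86.3 and 107 at 23 dph and 50.9 and 154 at 37 dph. The animals of 37 dph were the lowest and the highest of the 6, and in raw counts they gave 34 and 159 reads. ENSSMAG00000003214 came next by this average, at 0.55, though its largest ratio in a single stage was 1.79. With 2 and 3 counts at 3 dpf, it stood at 83.6 and 66.7 normalized counts at 15 dph, 81.4 and 57.9 at 23 dph and 62.9 and 113 at 37 dph. Its replicate 1 was the higher at 15 and 23 dph and the lower at 37 dph. The last gene without a read at 3 dpf went the other way at 37 dph. It stood at 58.9 and 59.3 normalized counts at 15 dph, 59.5 and 76.4 at 23 dph and 95.8 and 39.8 at 37 dph, where replicate 1 was 2.41 times replicate 2.

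At 37 dph 15 of the 23 genes were higher in replicate 2, with a median log2 ratio of replicate 2 over replicate 1 of 0.29. This ratio depends on the scale. By library totals alone the median was 0.56 with 20 genes higher in replicate 2, and that of all genes at 50 or more was 0.24. Replicate 2 of 37 dph was the highest of the 6 later libraries for 12 genes, and replicate 1 of 37 dph the lowest for 6. These 2 counts are given without a share over other genes, so nothing is read from them. Among all genes at 50 or more, too, replicate ratios of 1.4 or more were most frequent at 37 dph. The shares were 19.5% there, 4.85% at 23 dph and 3.30% at 15 dph. Under size factors the median log2 ratio among all genes at 50 or more was -0.02, with 47.1% higher in replicate 2, and in the 144 genes silent at 3 dpf that were not steady it was -0.08, with 46.5% higher in replicate 2. At 15 dph the median over the 23 genes was 0.01 and at 23 dph it was 0.12, with 12 and 15 genes higher in replicate 2. The genes share these libraries and are not replicates of each other, so no p is given.

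**Figure D4:**
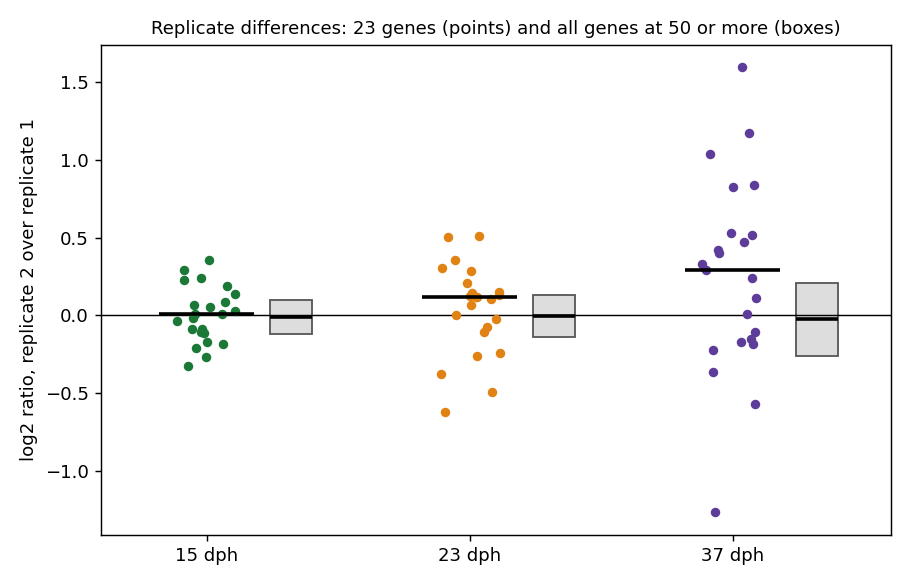
Log2 ratio of replicate 2 over replicate 1 in normalized counts (vertical axis) at the 3 later stages for the 23 genes (points, with a bar at the median); boxes show the quartiles and median of all genes with at least 50 normalized counts at each later stage. The points spread from -1.27 to 1.60 at 37 dph and from -0.33 to 0.36 at 15 dph.

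Among the later libraries, which genes counted as steady depended most on replicate 1 of 37 dph. Without replicate 1 of 37 dph 21 genes met the selection, of which 12 were among the 23, and without replicate 2 of 37 dph 26 genes did, of which 18 were. Leaving out a library of 15 or 23 dph gave from 23 to 25 genes, with between 18 and 22 of the 23 among them. Without replicate 1 of 37 dph 3 of the 23 genes were called between 15 and 37 dph and 2 between 23 and 37 dph, all higher at 37 dph and including the 3 genes with the most reads, where 5755 and 3186 of the 19208 genes tested were called. Without replicate 2 of 37 dph 0 and 1 were called, against 38.4% and 23.5% of all genes, and the 1 gene, ENSSMAG00000011348, was lower at 37 dph. Its 2 animals of 37 dph lay on either side of both 23 dph libraries. Leaving out either 3 dpf library, which takes no part in the comparison itself, called 2 genes between 15 and 37 dph, 1 in each direction, while the share of all genes called rose from 43.2% to 51.3%. These counts of the 23 genes all lie under the shares of all genes. The selection held the differences between these stage means small, which favours such low counts, so nothing is read from them. In such fits a stage with 1 animal is assumed to vary like the others. With only 1 embryo library required to be at 3 counts or fewer, 34 genes (3 dpf replicate 1 left out) or 39 genes (3 dpf replicate 2 left out) met the selection, all 23 included.

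The steadiness is relative to the scale set by the bulk of genes. Under size factors the median log2 change of the 23 genes from 15 to 37 dph was 0.13, that of all genes at 50 or more was -0.02, and 7 of the 23 were lower at 37 dph. When library totals alone set the scale, all genes at 50 or more shifted to a median of -0.58 and the 23 genes to -0.44, with all 23 lower at 37 dph. The distance of the 23 genes from the median of all genes was 0.15 and 0.14 under these scalings. A change of scale shifts all genes nearly alike, so this distance could hardly differ and nothing is read from it. By totals 37 genes met the selection, 12 of them among the 23.

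The 23 genes were a small part of what was silent in the embryo. Of 2492 genes with 3 or fewer counts in both 3 dpf libraries, 1057 had no count in any of the 8 libraries. A mean of at least 50 at each later stage was reached by 167 genes, and 23 of these, or 13.8%, had later means within 1.4 times. Among 14916 genes at the same later level that were read at 3 dpf, 40.5% did. The share was 14.8% for genes with no embryo read, 13.6% with 1 to 3 counts in the higher library, 20.5% with 4 to 10, 25.6% with 11 to 50, 34.9% with 51 to 200 and 43.6% above 200. In each band of later level up to 2000 normalized counts the silent genes had the lower share. It was 29.2% against 43.1% at 50 to 100 and 12.2% against 37.8% at 100 to 200. At 200 to 500 it was 16.7% against 40.7%, and at 500 to 2000 it was 6.52% against 43.2%. The silent shares rest on 7, 6, 7 and 3 steady genes. Steadiness under 2-fold was met by 44.9% of the silent and 79.7% of the read genes. These shares describe the tables and were not tested.

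**Figure D5:**
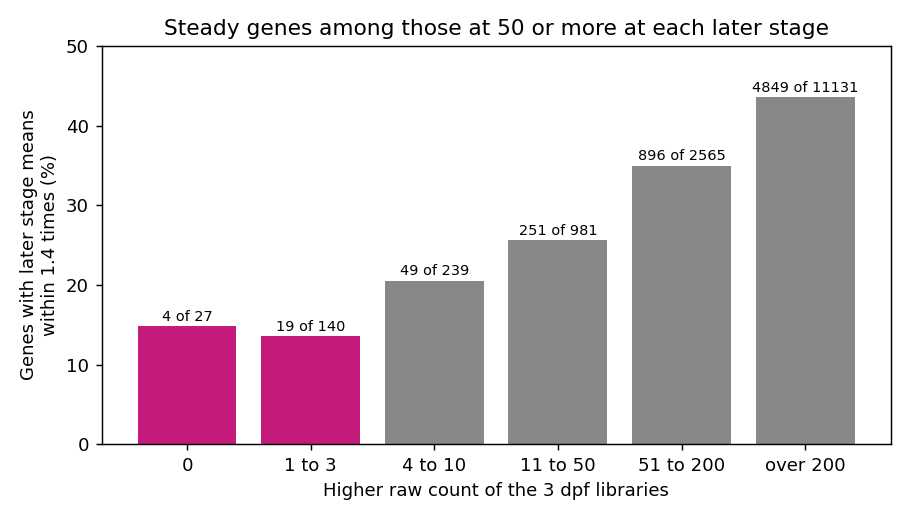
Percent of genes whose later stage means lay within 1.4 times (vertical axis), among genes with at least 50 normalized counts at each later stage, by the higher raw count of the 3 dpf libraries (horizontal axis); labels give the number of steady genes of the number in the class. Pink bars hold the 23 genes (4 of 27 and 19 of 140), and the bars rise to 43.6% for genes above 200 counts.

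In the other 144 silent genes the highest later mean was at 37 dph in 74.3% and the lowest at 15 dph in 70.8%, against 47.8% and 39.1% of the 23 steady genes, a difference that was not tested. In the 14916 genes above the embryo count limit, steady or not, these shares were 41.2% and 37.0%. Of the 144, 52 had a largest later mean from 1.4 to 2 times the smallest, 56 from 2 to 4, 19 from 4 to 8 and 17 of 8 times or more, up to 48.5 times. Their replicates of 15 dph differed by 1.4 times or more in 18.1%, against 0 of the 23, and those of 37 dph in 46.5%, against 39.1%.

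The limits of the selection ran through a continuous spread of genes. The least steady of the 23 genes had a ratio of 1.39, and the nearest silent gene outside had 1.45, with 458, 461 and 663 normalized counts at 15, 23 and 37 dph. The lowest later stage mean inside, at 15 dph, was that of the gene with no embryo read that had 58.9 and 59.3 normalized counts there, and the highest outside was 49.8, in a gene with 66.4, 49.8 and 50.9 at the 3 stages. At 3 dpf 6 of the 23 genes had a count of 3 in a library, while 9 genes with a highest count of 4 and 40 with a highest count of 5 to 10 met every other limit. One of those 9, with 4 and 3 reads at 3 dpf, stood at 3955, 4353 and 3489 normalized counts at the later stages, above the later stage means of all 23. The gene with the most reads among the 23 reached a stage mean of 1610, far under the limit of 20000.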

How the data were processed

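RNA of 8 turbot was extracted with the RNeasy kit and made into stranded, poly(A)-selected libraries. After adapter trimming (Trimmomatic), the authors aligned reads by STAR against ASM1334776v1, ran HTSeq-count on Ensembl genes and deposited the raw counts, 1 table for each library. The strand setting and annotation release are not given in the sources used here, so how reads of overlapping genes were assigned is not known. Reads that matched near-identical copies may be missing from the gene counts. The 5 summary entries of each table were left out. They held 15.3% to 18.9% (no feature), 1.63% to 2.57% (ambiguous) and 2.52% to 7.00% (not unique) of what had aligned. The entry named as not aligned made up 48.7% to 49.3% of a table. The authors report that most reads of every library mapped, so this entry is not read as the share of reads that failed to align.

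The 23 genes were found with median-ratio size factors. Their replicates, stage means and counting intervals (95%, exact binomial) were computed with pandas 2.3.3 and scipy 1.17.1. The test was edgeR 4.0.16 in R 4.3.3, with filterByExpr, TMM and all 8 libraries in a fit of 4 stage means, and all 23 genes passed the filter. Standard errors are the log2 fold change over the square root of F. DESeq2 1.42.0 served as an alternative, and the fit and the selection were tested on simulated data. The counts simulated for the fit had the same spread at every stage, unlike these libraries, so that test does not cover their differences in spread. The genes and lists were chosen with earlier results of these data known. Named are the 2 genes with the highest later counts and the 2 with the smallest ratio of stage means. Also named are the 2 with the largest mean absolute log2 replicate difference over the later stages. Other genes are given by values without an identifier, since a table of 26628 RefSeq genes of the assembly ASM2237912v1 holds 0 Ensembl identifiers. The planned gene lists were therefore not run.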

Additional observations from a re-analysis of the deposited data

How the results depend on the processing

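Of 233 values recomputed under alternatives, 198 stayed within the limit set for them and 35 moved. Many of these values were fixed by how the genes were chosen, such as the calls against 3 dpf. The limits were also wide, and 34 genes selected in place of 23 (3 dpf replicate 1 left out) counted as unmoved. The count of 198 is thus no measure of how firm the results are. The number of genes selected was 23, and it was 4 with no count allowed at 3 dpf and 72 with 10 allowed, 9 and 75 with later means within 1.2 and 2 times, 39 and 15 with a minimum of 20 and 100 normalized counts, 4 when all 6 later libraries had to lie within 1.4 times, and 37 by library totals, each following from the limit or scale set. With TMM or upper-quartile scales it was 26 and 25, with 23 and 21 of the genes shared. With each library left out it ranged from 21 to 39, the most without replicate 2 of 3 dpf. The genes called between 15 and 37 dph were 1 with upper-quartile normalization and 0 to 3 with a library left out, where 44.4% and 22.4% to 51.3% of all genes were called, and those between 23 and 37 dph 0 to 2, with 1929 of 19222 (without replicate 2 of 23 dph) to 6973 of 19161 genes (without replicate 2 of 3 dpf) called over all. Those with all intervals within 2-fold were 8 to 21, from a main value of 19. Steadiness within 2 times raised the shares to 44.9% of silent and 79.7% of read genes. With all 8 libraries, every comparison with 3 dpf called 23 genes in each setting, where 22.0% to 28.9% of all genes were called. The selection required that step, so nothing is read from these counts.

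The labels number the replicates at each stage but do not say that a number marks a shared day. Each fish was killed for sampling, so no animal was shared between stages. Across 13347 genes, the correlation of replicate differences between stages ranged from -0.24 to 0.31, and since not every one was above 0.1 the numbers were not taken to pair the samples. With the replicate number as a block, 0 of the 23 genes were called between later stages. Of all genes, 2.66%, 27.8% and 43.8% were called from 15 to 23, 23 to 37 and 15 to 37 dph. In the comparisons of 15, 23 and 37 dph with 3 dpf, 23 genes were called each time, against 24.5%, 25.1% and 27.8% of all genes. With the block 21 of the 23 genes had all later-stage intervals within 2-fold. All genes called with the block rose from 409 to 506 between 15 and 23 dph. With 2 libraries at a stage, no test for a single outlying library was possible.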
